A study of Mus musculus with 2 samples.

Results

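Mir103-1, Mir103-2 and Mir107 are 3 mouse miRNA genes that lie inside pantothenate kinase genes and give near-identical mature miRNAs. They were chosen by name, as the rows whose Ensembl identifier carries 1 of these 3 symbols in GENCODE, and make up 3 of the 1973 genes counted. Small RNA below 30 nt was sequenced from the total RNA of whole stomach of B6NCrl mouse embryos at 14.5 days of development. The 1 group holds 2 biological replicates, each described as the stomach of 1 pup, while the sex label covers males and females. No treatment, genotype or age differed between the libraries, which were collected on different days, so replicate and day cannot be told apart.

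Pantothenate kinases catalyse the first step of coenzyme A synthesis, and the miRNAs in their introns are transcribed in the direction of the host gene. The miR-103 and miR-107 miRNAs are known from studies of insulin sensitivity, lipid metabolism and the cell cycle. A miRNA finds its targets mainly through its seed, bases 2 to 8 counted from the 5′ end, so miRNAs with the same seed are expected to share many targets. The seed of these miRNAs overlaps that of the miR-15 and miR-16 group, which is known for restraint of the cell cycle, but is offset by 1 base.

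The mature sequences (RefSeq, GRCm38.p6) are shown first, because they decide which reads can be assigned to which gene. In the 3p arms, written with the seed in capitals, Mir103-1 and Mir103-2 give the same 23 bases, and Mir107 differs from them by G22C, with positions counted from 1 at the 5′ end. Mir15a, Mir16-1 and Mir322 are shown for the offset seed.
miR-103-3p: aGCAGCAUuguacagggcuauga
miR-107-3p: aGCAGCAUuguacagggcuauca
miR-15a-5p: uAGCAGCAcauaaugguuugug
miR-16-5p: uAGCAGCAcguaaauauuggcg
miR-322-5p: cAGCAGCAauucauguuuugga

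No other gene of the RefSeq table carried the seed of miR-103 and miR-107: 3 of its 1738 mature sequences had it, from these 3 genes. The seed of the miR-15 and miR-16 group, which equals bases 1 to 7 of miR-103, occurred in 11 mature sequences. The first 21 bases of the 3p arm are identical in all 3 genes, so a read that ends before base 22 fits all of them.

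The 5p arms, unlike the 3p arms, differ between all 3 genes, and are shown with the bases that differ from Mir103-2 in capitals. At base 1, Mir103-1 has G where Mir103-2 has A, and at base 16, Mir107 has U where Mir103-2 has C.
miR-103-1-5p: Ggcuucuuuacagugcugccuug
miR-103-2-5p: agcuucuuuacagugcugccuug
miR-107-5p: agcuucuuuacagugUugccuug

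Each precursor lies in a different host gene and on a different chromosome, and all coordinates are on GRCm38 (mm10). Mir107 (ENSMUSG00000065594.1, chr19:34820687-34820773, minus strand) lies in Pank1. Mir103-2 (ENSMUSG00000065563.1, chr2:131288052-131288137, plus strand) lies in Pank2, and Mir103-1 (ENSMUSG00000065553.1, chr11:35782396-35782481, plus strand) in Pank3. In the principal transcripts of all 3 hosts, which have 7 exons each, the miRNA sits in intron 5 on the strand of the host. That intron measures 7282 nt in Pank1, 5801 nt in Pank2 and 1740 nt in Pank3, and the precursor starts 326, 454 and 688 nt after the preceding exon. Pank4 holds 0 annotated miRNA genes on its strand. None of the 3 belongs to a miRNA cluster: the nearest other annotated miRNA gene is 70073 nt from Mir107, 165470 nt from Mir103-1 and 247653 nt from Mir103-2.

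The precursors, 86 nt for both Mir103 genes and 87 nt for Mir107, are printed with the longest run shared with the Mir103-2 precursor in capitals, and for Mir103-2 the run shared with Mir103-1.
Mir103-1: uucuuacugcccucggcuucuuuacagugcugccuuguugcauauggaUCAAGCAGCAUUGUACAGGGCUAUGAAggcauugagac
Mir103-2: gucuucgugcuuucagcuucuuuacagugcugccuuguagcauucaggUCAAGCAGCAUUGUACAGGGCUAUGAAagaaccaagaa
Mir107: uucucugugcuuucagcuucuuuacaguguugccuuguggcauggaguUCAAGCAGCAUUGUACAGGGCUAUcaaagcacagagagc

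Mir103-1 and Mir103-2 share bases 16 to 38, the whole 5p arm (bases 15 to 37) but its first base, so a 5p read without that base fits both. The longest run shared by these 2 genes is 27 nt long and reaches past the 3p arm, which occupies bases 52 to 74, at both ends. The longest run that Mir107 shares with either Mir103 gene is 24 nt, up to base 72, so that its last 2 bases of the 3p arm fall outside. Mir107 also shares bases 7 to 29 with Mir103-2, which reach into the 5p arm. Aligned over their whole length, Mir103-1 and Mir103-2 were 80.2% identical, Mir103-1 and Mir107 80.5%, and Mir103-2 and Mir107 83.9%. In GENCODE M21 transcripts, the sequence of miR-103-3p was found in 2 genes, Mir103-1 and Mir103-2, and that of miR-107-3p and of each 5p arm in 1 gene. Of the 23-nt windows of each precursor, 6 of 64 in Mir103-1, 7 of 64 in Mir103-2 and 3 of 65 in Mir107 occurred in another precursor, always in 1 of these 3 genes. At 18 nt it was 16 of 69, 22 of 69 and 13 of 70.

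**Figure D1:**
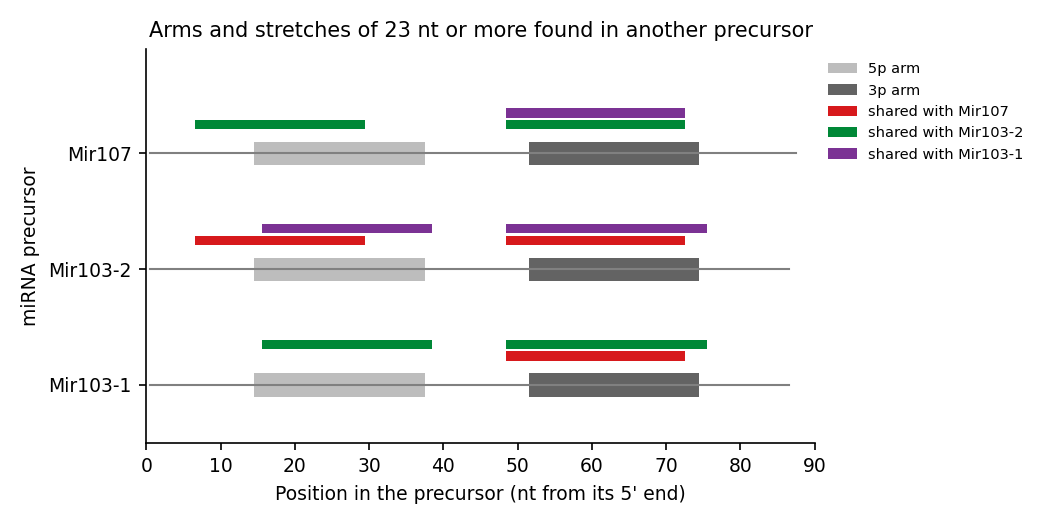
Map of the 3 precursors, with position in nt from the 5′ end on the x axis. Grey bars are the 5p and 3p arms, and coloured bars are stretches of 23 nt or more found in the precursor named by the colour. The Mir103-1 and Mir103-2 precursors share a stretch over the whole 3p arm (bases 49 to 75), whereas the one shared there with Mir107 ends at base 72, inside the arm. Stretches of 23 nt that reach into the 5p arm are shared by Mir103-1 and Mir103-2 (bases 16 to 38) and by Mir103-2 and Mir107 (bases 7 to 29).

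The deposited tables set reads that map to several places apart and count them for no gene. They made up 27.8% of all reads in replicate 1 and 27.4% in replicate 2, equal to 48.7% and 48.4% of the gene counts. A full-length read of miR-103-3p fits Mir103-1 and Mir103-2 equally, so the counts of these 2 genes leave such reads out, and the level of the mature miR-103-3p is not given by them. How many of the uncounted reads were miR-103-3p was not tested. The tables count a whole precursor, so reads of the 5p and 3p arms were not told apart.

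Mir107 was the highest of the 3 genes in both libraries. The genes of replicate 1 held 5004548 counts in all and those of replicate 2 held 4679914. Levels are expressed as CPM, the counts of a gene in every 1000000 counts of its library's genes, with the mean and SD over the libraries. They were not divided by length, since a small RNA is read as a whole. Mir107 had 6063 counts in replicate 1 and 5881 in replicate 2, or 1211.5 and 1257 CPM, a mean of 1234 ± 31.9 CPM (SD, n = 2). Replicate 2 was the higher of the 2 libraries, and the exact 95% Poisson intervals of the libraries, 1181 to 1242 CPM and 1225 to 1289 CPM, overlapped.

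Mir103-2 had 233 counts in replicate 1 and 267 in replicate 2, or 46.6 and 57.1 CPM, a mean of 51.8 ± 7.42 CPM (SD, n = 2). Its 95% Poisson intervals, 40.8 to 52.9 CPM and 50.4 to 64.3 CPM, overlapped. Mir103-1 was close to the lower end of what these libraries can count. It had 17 counts in replicate 1 and 24 in replicate 2, or 3.40 and 5.13 CPM, a mean of 4.26 ± 1.22 CPM (SD, n = 2), where 3 counts equal 0.599 and 0.641 CPM. The intervals of Mir103-1 were wide, from 1.98 to 5.44 CPM and from 3.29 to 7.63 CPM. All intervals cover counting error only, as reads carry no molecular identifiers. All 3 genes passed the minimum of 10 counts in both libraries that defines a detected gene here.

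**Figure D2:**
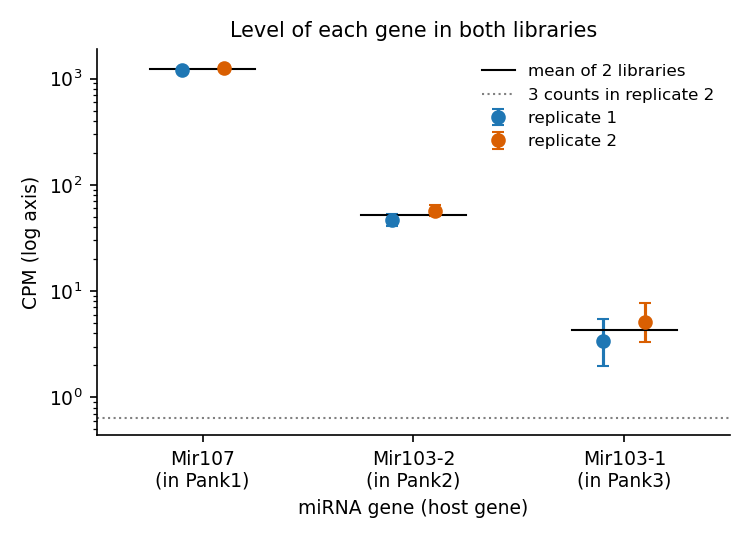
CPM of each gene (log axis) in replicate 1 and replicate 2, with 95% Poisson intervals as error bars, the mean of the libraries as a line and 3 counts in replicate 2 as a dotted line. The 3 genes lie at separate levels, Mir107 near 1234, Mir103-2 near 51.8 and Mir103-1 near 4.26 CPM. Replicate 2 is the higher library for each, as for most detected genes.

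The order Mir107, Mir103-2, Mir103-1 was the same in both libraries, and the ranges of the 3 genes did not overlap. Mir107 exceeded Mir103-2 by 26.0-fold in replicate 1 and 22.0-fold in replicate 2, a log2 ratio of 4.58 ± 0.17 (SD, n = 2). Mir103-2 exceeded Mir103-1 by 13.7-fold and 11.1-fold, a log2 ratio of 3.63 ± 0.21. Against Mir103-1, Mir107 was 357-fold and 245-fold higher, a log2 ratio of 8.21 ± 0.38. Each of these log2 ratios was larger than its spread between replicates, and no test was made of them. The folds compare counted reads, and for the ratios to Mir103-1 or Mir103-2 the uncounted miR-103-3p reads are missing from the Mir103 side. Reads of the 3p arm that end before base 22 fit all 3 genes, so the level of Mir107 can leave out reads too.

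Of the counts of the 3 genes together, 6313 in replicate 1 and 6172 in replicate 2, Mir107 held 96.0% (95% exact Clopper-Pearson interval 95.5 to 96.5) and 95.3% (94.7 to 95.8). Mir103-2 held 3.69% (3.24 to 4.19) and 4.33% (3.83 to 4.86). Mir103-1 held 0.269% (0.157 to 0.431) and 0.389% (0.249 to 0.578). The intervals of the 2 libraries overlapped for each gene. These shares and intervals cover counted reads alone, without the full-length miR-103-3p reads that fit both Mir103 genes.

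All counts of the 3 genes came from their annotated strand, which is also that of the host. On the opposite strand each gene had 0 counts in both libraries, which allows a share of up to 0.0495% and 0.0510% of the reads of Mir107, 1.29% and 1.12% of those of Mir103-2, and 17.6% and 12.5% of those of Mir103-1. The limit for Mir103-1 is wide because of its few counts. Levels of the Pank mRNAs were not measured by this assay.

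Among the 361 detected genes, Mir107 ranked 97th by mean CPM, Mir103-2 231st and Mir103-1 330th. Among the 130 detected genes that lie in introns of protein-coding genes on the same strand, their ranks were 36, 79 and 115. The median level of those 130 genes was 98.1 CPM (quartiles 13.1 and 1256), so Mir107 stood just under the upper quartile, Mir103-2 below the median and Mir103-1 below the lower quartile. Detected genes elsewhere had a median of 158 CPM.

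By summed distance of log2(CPM + 1) over both libraries, the genes nearest in level to Mir107 were Mir467d in an intron of Sfmbt2 (1256 ± 44.2 CPM), Mir615 in an intron of Hoxc5 (1256 ± 17.6 CPM) and Mir708 in an intron of Tenm4 (1260 ± 56.2 CPM). Nearest to Mir103-2 were Mir26a-2 of Ctdsp2 (52.1 ± 7.00 CPM), Mir760 (51.7 ± 4.50 CPM) and Mir452 of Gabre (49.3 ± 7.60 CPM). Nearest to Mir103-1 were Mir486 of Ank1 (4.36 ± 1.08 CPM), Mir3076 of Tkt (4.06 ± 1.21 CPM) and Mir3057 of Apba3 (4.35 ± 0.50 CPM). With 2 libraries, likeness here is one of level alone.

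Of the 7 detected miRNA genes of the offset seed group, 4 were higher than Mir107 and all 7 were higher than both Mir103 genes. Of the 10 symbols listed for the miR-15 and miR-16 group, 8 were among the genes counted, with Mir195b at 0 counts in both libraries. Mir503 is listed with them, although the last base of its seed differs. Their summed level was 23832 ± 729 CPM, 19.3-fold that of the 3 genes in replicate 1 and 17.7-fold in replicate 2, a log2 ratio of 4.21 ± 0.09. Mir322, the X-linked mouse form of miR-424, held most of it at 16594 ± 957 CPM. The counts of the Mir103 genes leave out full-length reads of miR-103-3p. These orders and folds therefore compare counted reads and are not folds between the mature miRNAs of the 2 families.

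Mir107 lay in the middle of this group. Mir15a (2065 ± 148 CPM), Mir16-1 (1622 ± 94.4 CPM) and Mir15b (1513 ± 1.60 CPM) were higher. Mir503 (883 ± 29.3 CPM), Mir195a (712 ± 32.1 CPM) and Mir16-2 (444 ± 48.3 CPM) were lower. Mir15b, the next gene above, was counted at 1514 and 1512 CPM against 1211.5 and 1257 CPM for Mir107, and Mir503, the next below, at 904 and 862 CPM. No neighbours in this order had overlapping ranges over the 2 libraries. Mir103-2 and Mir103-1 were below every detected gene of the group. Mir16-1 and Mir16-2 give the same miR-16-5p, so their counts leave out reads in the same way as those of the Mir103 genes.

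**Figure D3:**
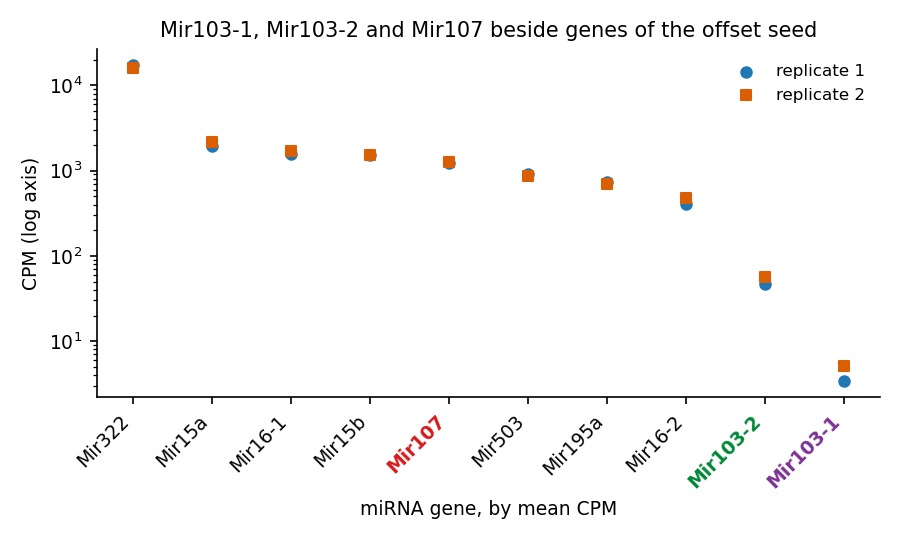
CPM (log axis) of the 3 genes and of the 7 detected genes of the miR-15 and miR-16 group, ordered by mean CPM, with 1 point for each library. Mir107 lies between Mir15b and Mir503, Mir103-2 and Mir103-1 are the lowest of the 10 genes, and no neighbours overlap.

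A second list held 8 miRNAs known from insulin and lipid metabolism or from metabolic organs, of which 7 were counted, all detected. Mir33, which lies in an intron of the sterol regulator gene Srebf2 as Mir107 lies in Pank1, had 453 and 328 counts, or 80.3 ± 14.4 CPM. Mir107 exceeded it 13.4-fold in replicate 1 and 17.9-fold in replicate 2. Mir375 of endocrine and gastric cells (5115 ± 617 CPM) and Mir143 of smooth muscle and mesenchyme were higher than Mir107. Mir370 (557 ± 19.6 CPM), Mir34a (142 ± 0.46 CPM), the liver miRNA Mir122 (61.3 ± 6.41 CPM) and Mir802 (45.2 and 2.56 CPM) were lower. These are levels of a whole organ, in which fewer cells of a type and less RNA per cell cannot be told apart.

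Marker miRNAs of the labelled tissue were present, with summed levels of 155329 CPM for smooth muscle and 41460.4 CPM for epithelium. Most of the smooth muscle sum was Mir143 (152490 CPM), which is also a miRNA of mesenchyme. The lists of squamous epithelium and mesenchyme summed to 16628 and 15246.5 CPM. Mir122 of liver had 61.3 CPM, and 3 miRNAs of pancreatic acinar cells had 6.29 CPM together. Lists of other cell types lay between the stomach lists and those of liver and pancreas. They summed to 1753 CPM for neural cells, 579 CPM for leukocytes, 185 CPM for erythroid cells and 111 CPM for striated muscle. Of the genes counted, 1 of 6 was detected for neural cells, 4 of 9 for striated muscle and 1 of 3 for pancreatic acinar cells. For leukocytes and for erythroid cells it was 3 of 3. The neural sum thus rests mainly on 1 gene. The sums cover lists of unequal length and are not levels of cell types. The lists name 4 genes each for leukocytes and erythroid cells, 7 for neural cells and 10 for striated muscle. Genes listed but not counted are missing from the sums. Which cells of the stomach the 3 genes came from cannot be read from these libraries.

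None of the 3 genes was called different between the 2 libraries. The comparison asked how far their levels varied between replicates and used an exact conditional binomial test, with p-values adjusted by Benjamini and Hochberg's method across the 361 detected genes. A call needed an adjusted p below 0.05 together with a log2 ratio, replicate 2 over replicate 1, of at least 1 in absolute size, and 4 of the 361 genes (1.11%) met both. The test compares these libraries and not conditions.

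Mir107 had a log2 ratio of 0.05, with a 95% interval of 0.00079 to 0.10 and an adjusted p = 0.0943 in the exact test. The log2 ratio of Mir103-2 was 0.29, with an interval of 0.03 to 0.55 and an adjusted p = 0.0590 in the exact test. For Mir103-1 it was 0.59, with an interval of -0.36 to 1.58 and an adjusted p = 0.343 in the exact test. The ratio was above 0 for all 3, as for most detected genes, whose median was 0.04. The median of the 3, 0.29, was the value of Mir103-2. The 59 detected genes within 2-fold of the mean level of Mir103-2, itself included, had a median of 0.12. The sign for Mir107 depended on the scaling, with a log2 ratio of -0.04 by DESeq2's size factors and of 0.00012 by edgeR's TMM factors.

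By adjusted p alone, 152 of the 361 genes (42.1%) passed in the exact binomial test and 0 of the 3 members did. At an unadjusted p under 0.05, Mir107 (p = 0.0460, exact) and Mir103-2 (p = 0.0252, exact) passed. Adjustment never lowers a p-value, so at least the same 152 genes (42.1%) passed there too, and passing does not set these members apart. The 152 split into 89 higher in replicate 2 and 63 higher in replicate 1, against 74 and 94 with TMM factors and 58 and 115 with size factors. With the counts of Mir103-1 and Mir103-2 summed, the log2 ratio was 0.32 and the adjusted p was 0.0273 in the exact binomial test, still short of a log2 ratio of 1. In absolute size, the log2 ratio of Mir107 exceeded that of 62 detected genes, that of Mir103-2 exceeded 264, and that of Mir103-1 exceeded 340. Those ranks mix genes of unlike counts. Among detected genes within 2-fold of each member's mean level, itself included, the log2 ratios had different SDs. They were 0.18 for Mir107 (57 genes), 0.25 for Mir103-2 (59 genes) and 0.50 for Mir103-1 (62 genes). Near Mir103-1 the ratios ran from -2.34 to 0.68.

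**Figure D4:**
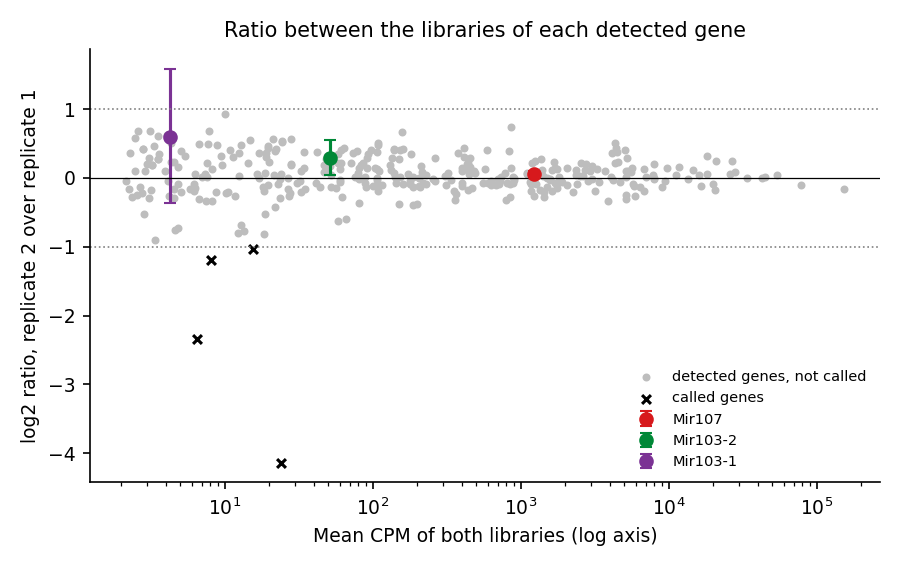
Log2 ratio of replicate 2 over replicate 1 against the mean CPM (log axis) of the 361 detected genes, with 95% exact intervals for the 3 genes, the 4 called genes as crosses and dotted lines at log2 ratios of 1 and -1. The interval widens from Mir107 to Mir103-2 to Mir103-1 as the counts fall, and all 3 ratios lie between the dotted lines.

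In the lists, 5 of the 7 detected genes of the miR-15 and miR-16 group passed by adjusted p in the exact binomial test, 3 higher and 2 lower in replicate 2, and 0 were called. Their median log2 ratio was -0.0022. Among the 7 metabolic genes the median was -0.17, 4 passed by adjusted p, all lower in replicate 2, and Mir802 was called with a log2 ratio of -4.14. Over all 361 detected genes, 42.1% passed by adjusted p and 1.11% were called, and their split by direction changed with the scaling.

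The Mir103 genes were also set beside other genes that share an arm with a copy elsewhere, a comparison chosen after the values were seen. RefSeq mature sequences matched 916 of the genes counted by symbol. Of these, 53 had an arm identical to that of another gene and an arm of their own, and 39 of them were detected, with a median of 52.1 CPM (quartiles 18.7 and 174). Of the 829 genes without a shared arm, 279 were detected, with a median of 178 CPM, and of the 34 genes with all arms shared, 7 were detected, with a median of 109 CPM. The share detected was thus 73.6% with some arms shared, 33.7% with none and 20.6% with all. Only a gene with 2 annotated arms, as 583 of the 916 had, can have some arms shared. The classes therefore differ in annotation as well as in copies, and the shares cannot tell these apart. Mir103-2 stood near the median of the genes with some arms shared and Mir103-1 below their lower quartile.

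In 16 pairs of genes that share 1 arm with each other alone, both copies were detected. By the geometric mean of the libraries, the higher copy exceeded the lower by a median of 4.22-fold, up to 65.7-fold for Mir181b-2 over Mir181b-1. Mir125b-2 over Mir125b-1 was at the low end, with 1.10-fold in replicate 1 and 0.993-fold in replicate 2, so that neither copy was the higher in both libraries. The pair of Mir103-2 and Mir103-1, at 12.3-fold, ranked 3 of the 16, after Mir181b and after Mir92-1 over Mir92-2, at 49.9-fold and 50.8-fold. Mir194-2 over Mir194-1, at 11.0-fold and 11.8-fold, and Mir181a-1 over Mir181a-2, at 10.2-fold and 11.2-fold, were close to the Mir103 pair, and their values overlapped with its 13.7-fold and 11.1-fold. These folds describe the reads that could be assigned to a copy, and whether they follow the transcription of the copies was not tested.

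**Figure D5:**
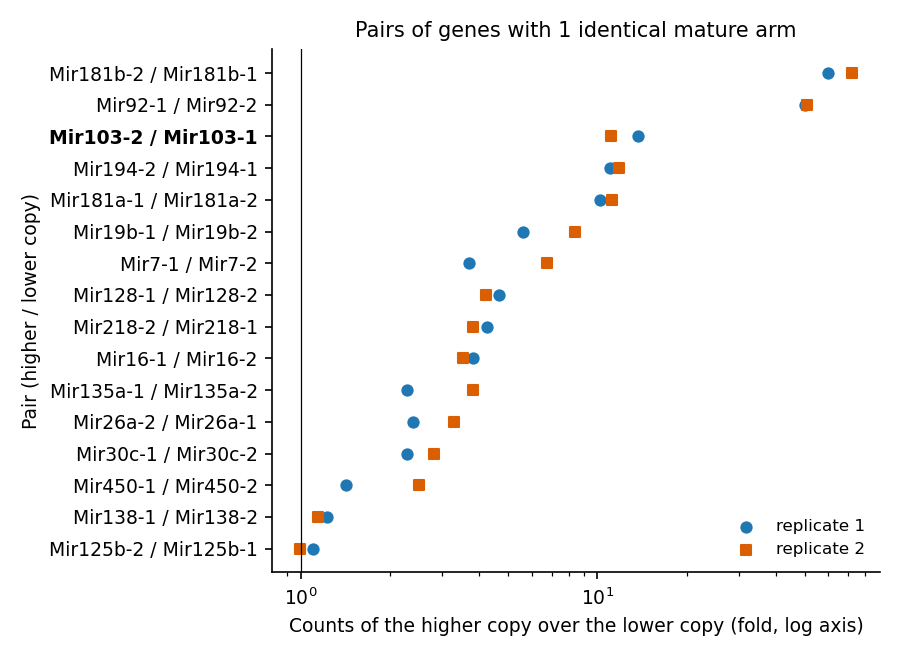
Counts of the higher copy over those of the lower copy (fold, log axis) in each library for 16 pairs of genes with 1 identical mature arm. The Mir103-2 and Mir103-1 pair, at 13.7-fold and 11.1-fold, lies below the Mir181b and Mir92 pairs.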

How the data were processed

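The authors deposited 1 table of whole-number counts per gene for each library, made on mm10 with GENCODE M4 per the text files deposited beside them. Which aligner and counter were used is not given in the sources used here. Of the 3 count columns, the first covers both strands and was used; the others hold the separate strands. The 4 lines that name no gene were left out: unmapped reads (12.5% and 13.5% of reads), multimapping reads, reads outside genes (2.50% and 2.32%) and ambiguous reads (0).

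Symbols, coordinates and same-strand hosts came from GENCODE M21 (GRCm38), which matched 1894 of the 1973 genes, and sequences from RefSeq (GRCm38.p6). Sequences were compared with Biopython 1.88 (match 1, mismatch -1, gap opening -2, gap extension -1). CPM, exact binomial tests (SciPy 1.17.1) and Benjamini-Hochberg adjustment were computed from the counts. The test was run on simulated counts in which some genes were changed by a known fold and counting error was the only noise. That check does not cover the larger differences between these libraries. edgeR 4.0.16 and DESeq2 1.42.0 gave alternative scalings alone, since 1 group has no contrast for a quasi-likelihood test. Over the 361 detected genes the 2 count profiles differed beyond sampling noise (chi-square of 75.8 per degree of freedom) and were kept as 2 replicates.

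The genes named are the 3 members, the detected genes of the 2 lists, the 3 genes nearest in level to each member, and the hosts. Mir92, Mir125b, Mir181 and Mir194 genes, Mir195b, Mir497, Mir497b and Pank4 fall outside this rule and were named after the values were seen. Members and lists were chosen with earlier results of these data known. Alternatives covered scaling, the minimum count, the strand column, summed copies and each library left out.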

Additional observations from a re-analysis of the deposited data

Results flagged for a closer look

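On the strand opposite to Mir497b (chromosome 11, 70234692 to 70234816), where Mir497 of the offset seed group is annotated, there were 3537 counts in replicate 1 and 3073 in replicate 2, or 682 ± 35.4 CPM (SD, n = 2), in data that the levels of that group do not use. Its own strand held 0 and 1 counts.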

How the results depend on the processing

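With totals that leave out the 5 most abundant genes, the levels were 6.76 CPM for Mir103-1, 82.3 CPM for Mir103-2 and 1964 CPM for Mir107, and with totals that include reads that map to several places they were 2.87, 34.9 and 831 CPM, since each level is a share of the total. With the annotated strand alone, Mir107 had 1269 CPM and rank 90, and Mir103-2 had rank 221, as fewer genes and counts enter. Leaving out a library gave 3.40 to 5.13 CPM for Mir103-1, 46.6 to 57.1 CPM for Mir103-2 and 1211.5 to 1257 CPM for Mir107. The ranks then ran from 317 to 334, from 224 to 232 and from 97 to 98. The number of genes called between the libraries was 4 under 5 alternatives and 6 with no minimum count, and no member was called under any alternative run. Adding the opposite-strand counts of Mir497b, an alternative chosen after seeing the data, gave the offset seed group 24513 CPM. No paired analysis was possible because the samples form 1 group. Depth limits the precision of Mir103-1, with 17 and 24 counts, and reads that map to several places limit the levels of all 3 genes.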
